A study of Homo sapiens with 2 samples.

Results

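The genes DAZL, DDX4, MAEL, SYCP3, ASZ1, TDRD9, TDRD1, PIWIL2, SOHLH2, and HORMAD1 were analyzed, 10 of the 33538 genes in the deposited tables. They were chosen by name, as genes that work in germ cells and whose promoters are known to carry CpG methylation in somatic cells. Methylation was not measured in these libraries. HCT116 cells derive from a human colorectal carcinoma. Decitabine (DAC), a nucleoside drug, is built into DNA in place of deoxycytidine and binds DNA methyltransferases there, and dividing cells then lose methylation. Cells received a mock treatment or DAC at 0.5 μM, given on day 1 and again on day 3. The drug was taken away on day 5, and cells were collected on day 7. Each condition gave 1 library of single cells, in which each captured transcript carried a unique molecular identifier (UMI) near its poly(A) tail. The tables held 1783 mock-treated cells with 49911689 UMIs and 1751 DAC-treated cells with 59046165 UMIs. With 1 library per condition there was no replicate check and no test, so the intervals below are 95% intervals that cover counting error only, exact Clopper-Pearson for shares of cells and exact Poisson for UMI sums.

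In germ cells, the piRNA pathway loads short RNAs onto PIWI proteins and silences transposons, largely in granules next to mitochondria. Meiosis pairs homologous chromosomes along the synaptonemal complex, and germ cell transcription factors and RNA-binding proteins set up both programs. Somatic cells keep many of these genes off through promoter methylation together with a polycomb complex, PRC1.6, whose DNA-binding subunits recognize E-box and E2F motifs.

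The promoter sequences are shown because CpG sites carry the methylation that DAC removes, and these 6 stretches include the E-box and E2F-type motifs described next, and a stretch without CpG. They come from RefSeq entries on GRCh38.p14, were cut to the part outside annotated exons, and read 5′ to 3′ on the strand of the gene with each CpG in capitals. The MAEL stretch was at chr1:166989030-166989088 on the + strand, the SYCP3 stretch at chr12:101739473-101739577 on the - strand, and the DAZL stretch at chr3:16604791-16605040 on the - strand. The TDRD1 stretch was at chr10:114179037-114179269 on the + strand, the ASZ1 stretch at chr7:117427508-117427743 on the - strand, and the DDX4 stretch at chr5:55766635-55766884 on the + strand.
MAEL: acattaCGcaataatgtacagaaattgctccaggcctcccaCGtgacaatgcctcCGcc
SYCP3: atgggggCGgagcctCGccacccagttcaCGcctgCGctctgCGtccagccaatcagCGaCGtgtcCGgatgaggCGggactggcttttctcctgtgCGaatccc
DAZL: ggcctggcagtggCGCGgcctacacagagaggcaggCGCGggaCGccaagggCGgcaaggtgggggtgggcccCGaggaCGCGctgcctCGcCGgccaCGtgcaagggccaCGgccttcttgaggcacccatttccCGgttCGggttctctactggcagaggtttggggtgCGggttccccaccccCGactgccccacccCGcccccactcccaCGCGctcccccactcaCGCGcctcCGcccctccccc
TDRD1: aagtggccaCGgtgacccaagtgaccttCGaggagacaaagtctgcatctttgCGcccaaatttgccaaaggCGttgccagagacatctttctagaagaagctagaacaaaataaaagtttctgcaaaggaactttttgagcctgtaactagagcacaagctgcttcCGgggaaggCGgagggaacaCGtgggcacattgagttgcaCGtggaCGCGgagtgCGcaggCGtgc
ASZ1: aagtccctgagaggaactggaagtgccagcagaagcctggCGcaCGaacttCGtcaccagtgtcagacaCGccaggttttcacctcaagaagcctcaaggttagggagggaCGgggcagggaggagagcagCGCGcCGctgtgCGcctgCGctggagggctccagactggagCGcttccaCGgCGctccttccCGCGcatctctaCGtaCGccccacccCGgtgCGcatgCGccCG
DDX4: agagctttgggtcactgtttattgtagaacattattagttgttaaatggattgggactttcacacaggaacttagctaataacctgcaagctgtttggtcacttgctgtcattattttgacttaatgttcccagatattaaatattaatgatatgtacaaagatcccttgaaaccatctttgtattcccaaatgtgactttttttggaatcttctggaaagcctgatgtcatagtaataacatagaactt

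RefSeq gave 11 promoter entries for 8 of the genes, of which DAZL, MAEL, and TDRD1 had several. PIWIL2 and HORMAD1 had none. In the 250 bases before the start, the MAEL entries held 51 and 22 CpGs, TDRD9 held 35, DAZL held 28 and 23, ASZ1 held 21, SOHLH2 held 20, SYCP3 held 19, and the overlapping TDRD1 entries held 13 and 15. The median over all 35116 entries was 11 CpGs, with quartiles of 3 and 23, so each of these genes lay above the median. The MAEL window with 51 CpGs overlapped exons of another gene, ILDR2, and its longest stretch outside exons had 41 bases and 9 CpGs. The TDRD9 window overlapped exons of ATP5MJ, and its longest stretch outside exons had 186 bases and 31 CpGs. The DDX4 entry held 0 CpGs. It started 28868 bases inside the GENCODE gene, the DAZL entries started 64883 and 65516 bases inside theirs, and the MAEL entry shown started 13698 bases inside. Which start each gene uses was not tested, so DDX4 is not shown to lack CpGs at the start used in germ cells. Of the 22 CpGs of that MAEL entry, the 59 bases outside exons held 3 and ended 192 bases before the start. An E-box, CACGTG, which reads the same on both strands, was present in 6.34% of all entries and in 4 of the 11 entries of these genes, namely the DAZL and MAEL entries shown above and both TDRD1 entries. An E2F-type motif, TCCCGC or its reverse complement GCGGGA, was present in 23.5% of all entries and in 3 of the 11, in DAZL, SYCP3, and ASZ1. Both motifs contain a CpG, and most entries of these genes held more CpGs than the median entry, so the shares over all entries are not a matched background. The DAZL stretch held both motifs without overlap. These matches describe letters in a window, and 3′ UMIs do not show which start a transcript used.

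On hg38, with positions of whole genes from GENCODE 44, DAZL (ENSG00000092345) spans chr3:16586792-16670306 and MAEL (ENSG00000143194) spans chr1:166975582-167022214. SYCP3 (ENSG00000139351) spans chr12:101728648-101739472, and PIWIL2 (ENSG00000197181) spans chr8:22275316-22357568. TDRD1 (ENSG00000095627) spans chr10:114179270-114232666, and TDRD9 (ENSG00000156414) spans chr14:103928456-104052667. SOHLH2 (ENSG00000120669) spans chr13:36168217-36214588, and HORMAD1 (ENSG00000143452) spans chr1:150698060-150720895. DDX4 (ENSG00000152670) spans chr5:55738017-55817157, and ASZ1 (ENSG00000154438) spans chr7:117363222-117428123. SYCP3 overlaps CHPT1, DDX4 overlaps SLC38A9, ASZ1 overlaps CFTR, and TDRD9 overlaps RD3L, each on the opposite strand. The use of strand in counting is not given in the sources used here. SOHLH2 shares its strand with the readthrough gene CCDC169-SOHLH2, so reads common to both could be dropped or split, and its UMIs are therefore uncertain. DAZL shares its strand with a long noncoding RNA gene (ENSG00000229271) and has the same uncertainty, although that gene had 0 UMIs in both libraries.

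Almost no UMI of these genes was present in mock-treated cells, and most DAC-treated cells had at least 1. Summed over the 10 genes, the mock-treated library had 35 UMIs and the DAC-treated library had 6705. Scaled to 1000000 UMIs of a library (CPM), these were 0.701 and 114 CPM. This was a 162-fold higher level in DAC-treated cells, with an interval from 116 to 233. Its size moved with single genes: the log2 ratio of 7.34 was 8.44 without SYCP3, which had 23 of the 35 mock-treated UMIs, and 6.65 without MAEL. At least 1 of the genes was detected in 34 mock-treated cells, 1.91% (1.32 to 2.65%), and in 1200 DAC-treated cells, 68.5% (66.3 to 70.7%). MAEL, SYCP3, and DAZL supplied 78.7% of the DAC-treated UMIs.

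Of the 9 genes with 10 UMIs or more in both libraries together, DAC-treated cells had a level at least 2-fold higher for 9, where 25.4% of all genes with that many UMIs did. A level higher by any amount was found for all 9, against 64.6% of such genes, and ASZ1 had too few UMIs to count. For 7 of the 9, DAZL, DDX4, MAEL, TDRD9, TDRD1, SOHLH2, and HORMAD1, these calls were fixed by the filter, because a gene with 2 UMIs or fewer in mock-treated cells reaches 10 UMIs only through DAC-treated cells and is then past 2-fold. When 10 UMIs were required in the mock-treated library alone, both of the 2 genes left, SYCP3 and PIWIL2, were at least 2-fold higher, as were 13.1% of all 15478 such genes. In every mock-treated cell, each of the 10 genes had 2 UMIs or fewer. The study calls a gene upregulated in a cell with 3 UMIs or more, and 8 of the 10 genes reached that in at least 1 DAC-treated cell, the exceptions being ASZ1 and HORMAD1. Among all 14099 genes that were as silent in mock-treated cells, 19.7% did.

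**Figure D1:**
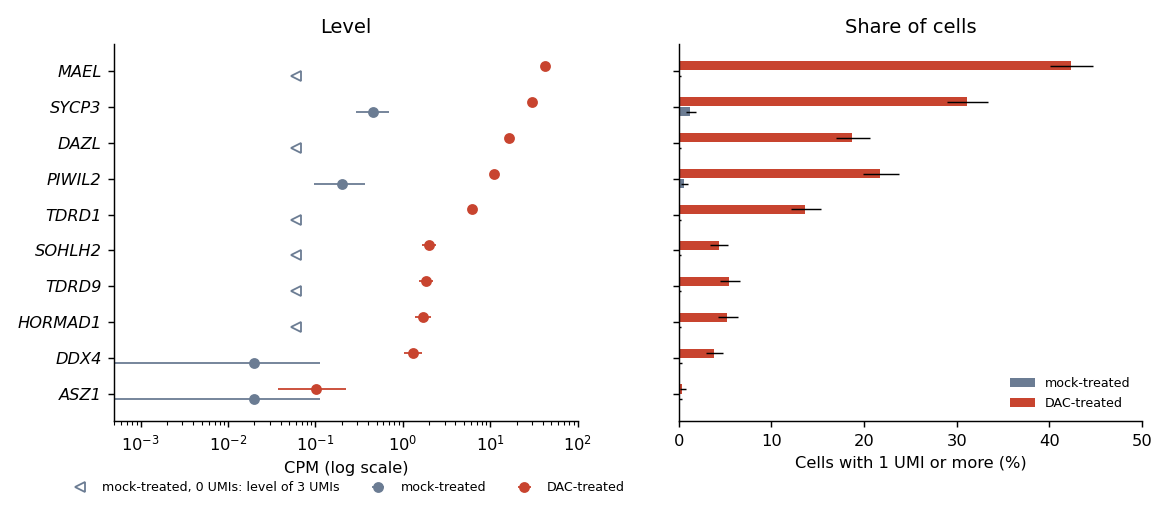
Level of each gene in CPM (UMIs scaled to 1000000 UMIs of the library), on a log scale (left), and percent of cells with 1 UMI or more (right), in the mock-treated (grey) and DAC-treated (red) library. Bars and lines show 95% counting intervals, and open triangles mark the level of 3 UMIs, the floor for genes at 0 UMIs in mock-treated cells. DAC-treated levels run from 42.9 for MAEL to 0.102 for ASZ1, and the ASZ1 intervals of the libraries overlap.

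Among the piRNA pathway genes of the 10, MAEL, which acts with PIWI proteins in transposon silencing, had the highest level. No mock-treated cell had a UMI of MAEL. The floor of 3 counts allows up to 0.168% of cells with a UMI, which does not limit the cells that express it. DAC-treated cells had 2533 UMIs (2435 to 2634), a level higher by at least 714-fold against a floor of 3 counts over the mock-treated library. The floor is used for every gene at 0 here, and the lower end of a two-sided exact interval is lower, at 580 for MAEL, 223 for DAZL, 82.5 for TDRD1, 26.8 for SOHLH2, 24.6 for TDRD9, and 22.7 for HORMAD1. It was detected in 742 DAC-treated cells, 42.4% (40.0 to 44.7%), and had 3 UMIs or more in 366 cells, 20.9% (19.0 to 22.9%). In a single cell it reached 16 UMIs. Among the 14099 silent genes, MAEL was number 21 by UMIs in DAC-treated cells.

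PIWIL2, a PIWI protein that binds piRNAs, had 10 UMIs among 10 cells of the mock-treated library, against 656 UMIs (607 to 708) among 381 DAC-treated cells. This was 0.561% of mock-treated and 21.8% (19.8 to 23.8%) of DAC-treated cells, and the level was 55.5-fold higher (30.0 to 116). PIWIL2 had 3 UMIs or more in 3.48% of DAC-treated cells, a smaller share than for DAZL, which was detected in fewer cells. A high share of its positive cells thus carried 1 or 2 UMIs, with a mean of 1.72 UMIs in a positive cell.

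The Tudor domain proteins TDRD1 and TDRD9 bind PIWI proteins, and both genes were at 0 UMIs in mock-treated cells. TDRD1 had 362 UMIs (326 to 401) in 239 DAC-treated cells, 13.6% (12.1 to 15.3%), at least 102-fold higher, and 11 UMIs in the highest cell. TDRD9, which is also a helicase, had 109 UMIs (89.5 to 131) in 95 cells, 5.43% (4.41 to 6.59%), at least 30.7-fold higher, and 3 UMIs in its highest cell. The level of TDRD1 was above that of TDRD9 beyond counting error.

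DDX4, the germ cell helicase also called VASA, had 1 UMI without DAC and 78 UMIs (61.7 to 97.3) in 66 DAC-treated cells, 3.77% (2.93 to 4.77%). The ratio was 65.9, with an interval from 11.5 to 2637. ASZ1, a scaffold protein of the granules, had 1 UMI without DAC and 6 UMIs (2.20 to 13.1) in 6 DAC-treated cells, 0.343% (0.126 to 0.744%). Its ratio of 5.07 had an interval from 0.615 to 233, so a difference was not detectable at this depth, although its promoter entry held 21 CpGs.

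SYCP3 forms the lateral elements of the synaptonemal complex, and HORMAD1 marks chromosome axes that are not yet paired. SYCP3 had 23 UMIs in 22 mock-treated cells, 1.23%, the most of any of the 10 genes, and 1765 UMIs (1684 to 1849) in 545 DAC-treated cells, 31.1% (29.0 to 33.4%). The level was 0.461 CPM in mock-treated and 29.9 CPM in DAC-treated cells, 64.9-fold higher (43.1 to 103). SYCP3 had 3 UMIs or more in 13.4% (11.9 to 15.1%) of DAC-treated cells and 26 UMIs in the highest one. HORMAD1 had 0 UMIs in the mock-treated library and 101 UMIs (82.3 to 123) in 91 DAC-treated cells, 5.20% (4.20 to 6.34%), at least 28.5-fold higher. No cell had more than 2 UMIs of HORMAD1.

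DAZL, an RNA-binding protein that controls translation in germ cells, had 0 UMIs in the mock-treated library and 976 UMIs (916 to 1039) in DAC-treated cells, at least 275-fold higher. It was detected in 328 cells, 18.7% (16.9 to 20.6%), and 139 cells, 7.94%, had 3 UMIs or more. SOHLH2, a transcription factor of early germ cells, had 0 UMIs in the mock-treated library and 119 UMIs (98.6 to 142) in 75 DAC-treated cells, 4.28% (3.38 to 5.34%), at least 33.5-fold higher. The 10 cells with the most SOHLH2 UMIs held 31.1% of them.

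UMIs were counted at the 3′ end of transcripts, so no length scaling was applied, but capture can differ between genes. By UMIs in DAC-treated cells the order was MAEL, SYCP3, DAZL, PIWIL2, TDRD1, SOHLH2, TDRD9, HORMAD1, DDX4, and ASZ1. The counting intervals of neighbors did not overlap among the first 5 or between TDRD1 and SOHLH2. SOHLH2, TDRD9, and HORMAD1 had overlapping intervals, as did HORMAD1 and DDX4, and ASZ1 lay below DDX4. The order by share of cells differed in that PIWIL2 stood above DAZL and that SOHLH2 stood below TDRD9 and HORMAD1, with overlapping intervals in each case.

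A positive DAC-treated cell had a mean of 3.41 UMIs of MAEL, 3.24 of SYCP3, and 2.98 of DAZL, and of 1.59 for SOHLH2, 1.51 for TDRD1, 1.18 for DDX4, 1.15 for TDRD9, and 1.11 for HORMAD1. In 38 cells MAEL reached 10 UMIs or more, SYCP3 did in 24, DAZL in 7, PIWIL2 in 2, and TDRD1 in 1. To describe how unevenly a gene was spread, the cells at 0 were compared with the number expected if its UMIs were shared over all cells in proportion to their totals. MAEL was at 0 in 1009 cells where 673 were expected, 1.50 times as many. SYCP3 was at 0 in 1206 cells where 823 were expected, 1.46 times as many. DAZL was at 0 in 1423 cells where 1088 were expected, 1.31 times, and PIWIL2 in 1370 where 1250 were expected, 1.10 times. Among genes with UMIs within 20% of its own, the ratio was lower for 97.9% of genes beside MAEL, 99.1% beside SYCP3, 99.3% beside DAZL, and 95.5% beside PIWIL2. It was lower for 93.9% beside TDRD1, 96.4% beside SOHLH2, 81.9% beside DDX4, 67.9% beside TDRD9, and 53.9% beside HORMAD1. No cell type lacking these genes was in the library to show the level of RNA free in the droplets, and its part in the values was not tested.

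**Figure D2:**
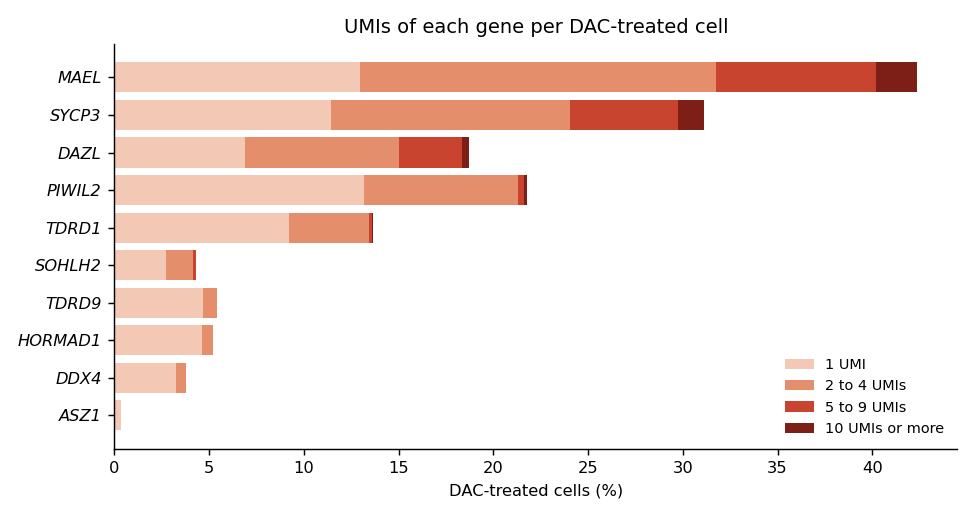
Percent of the 1751 DAC-treated cells with 1, 2 to 4, 5 to 9, and 10 or more UMIs of each gene, stacked from light to dark. MAEL, SYCP3, and DAZL have dark segments of 5 UMIs or more, while most positive cells of TDRD9, HORMAD1, and DDX4 have 1 UMI.

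The share of positive cells depended on the depth of the cell. DAC-treated cells were divided by total UMIs into 3 groups of like size. In these groups, which had medians of 2179, 35340, and 59101 UMIs, at least 1 gene was detected in 27.4%, 86.1%, and 92.1% of cells. The level over the 10 genes was 94.8, 119, and 112 CPM in these groups, so it differed less than the share. In the 3 groups of mock-treated cells made likewise, the shares were 0.842%, 1.85%, and 3.03%. Among cells with 10000 UMIs or more and at most 50% mitochondrial UMIs, 89.0% (87.0 to 90.8%) of 1120 DAC-treated cells and 2.47% of 1298 mock-treated cells were positive. In the 319 DAC-treated cells with over 50% mitochondrial UMIs, the share was 41.7% and the level was 67.2 CPM. The totals behind CPM include mitochondrial UMIs, so this level is not comparable with that of the other cells.

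When 10000 UMIs were drawn from each cell, which leaves 1293 DAC-treated and 1388 mock-treated cells, the expected share of DAC-treated cells was 28.1% for MAEL, 19.1% for SYCP3, 11.1% for DAZL, 9.22% for PIWIL2, and 5.48% for TDRD1. In mock-treated cells it was 0.483% for SYCP3 and 0.219% for PIWIL2. Over all cells, median UMIs were 27899 in mock-treated and 35340 in DAC-treated cells. MAEL, DAZL, and TDRD1 had 0 UMIs in mock-treated cells, so drawing could not change their direction. The shares of SYCP3 and PIWIL2, which could have changed direction, stayed higher in DAC-treated cells. The libraries had 12 barcodes in common. Under these, 3 DAC-treated cells held 22 UMIs of the 10 genes, while the mock-treated cells held 0, and without them the share of positive DAC-treated cells was 68.8%.

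The genes were then counted within each cell. Of the 1751 cells, 551 had none, 425 had 1, 387 had 2, 242 had 3, 96 had 4, 41 had 5, and 9 had 6 of the genes, and no cell had 7. The mean was 1.47 genes in a DAC-treated cell and 0.0191 in a mock-treated cell, where no cell had more than 1. For comparison, the number expected without association between genes was computed from the share of each gene within 10 groups of cells by total UMIs. For 0 genes, 551 cells were observed and 521 were expected. Among the 1120 cells with 10000 UMIs or more and at most 50% mitochondrial UMIs, 123 were observed at 0 genes and 96.0 expected. For 2 or more genes, 775 cells were observed and 787 were expected, a ratio of 0.985. For 3 or more, 388 were observed and 386 expected, and for 4 or more, 146 were observed and 131 expected, with an interval on the observed number from 123 to 172. For 5 or more, 50 cells were observed (37.1 to 65.9) and 29.7 were expected, a ratio of 1.68.

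**Figure D3:**
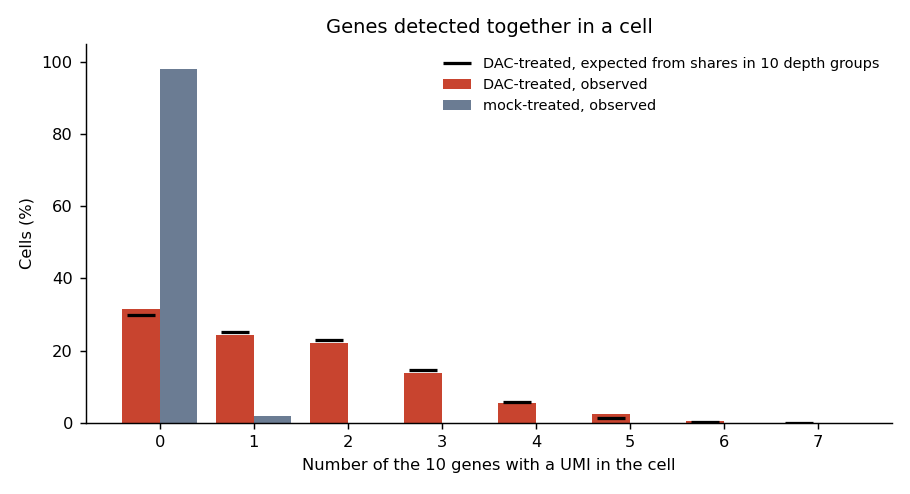
Percent of cells by the number of the 10 genes with a UMI, in DAC-treated (red) and mock-treated (grey) cells, with the expected percent of DAC-treated cells as black lines. The observed bar is above the line at 0 genes, below it from 1 to 4 genes, and above it at 5 and 6 genes.

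With 3 UMIs or more as the threshold, 619 DAC-treated cells, 35.4%, had at least 1 of the genes. In 183 cells 2 or more genes passed this threshold, where 174 were expected, and in 34 cells 3 or more did, where 25.02 were expected and the interval on the observed number ran from 23.5 to 47.5. No cell had 5 genes at this threshold.

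Among the 45 pairs, 34 had 5 or more cells expected, and 25 of these were observed above the expected number. The median ratio of observed to expected was 1.08, with a range from 0.788 to 1.50. The most common pair was MAEL with SYCP3, in 314 cells (280 to 351) where 295 were expected. MAEL and PIWIL2 were found together in 220 cells where 221 were expected, and DAZL and MAEL in 184 where 179 were expected. The interval was above the expected number for 1 pair, DDX4 with SYCP3, in 41 cells (29.4 to 55.6) where 27.4 were expected, and below it for 0 pairs. At 3 UMIs or more, 8 pairs had enough cells, and the interval was above the expected number for DAZL with SYCP3, in 45 cells (32.8 to 60.2) where 31.3 were expected. The 95% level applies to each of the 34 intervals singly.

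**Figure D4:**
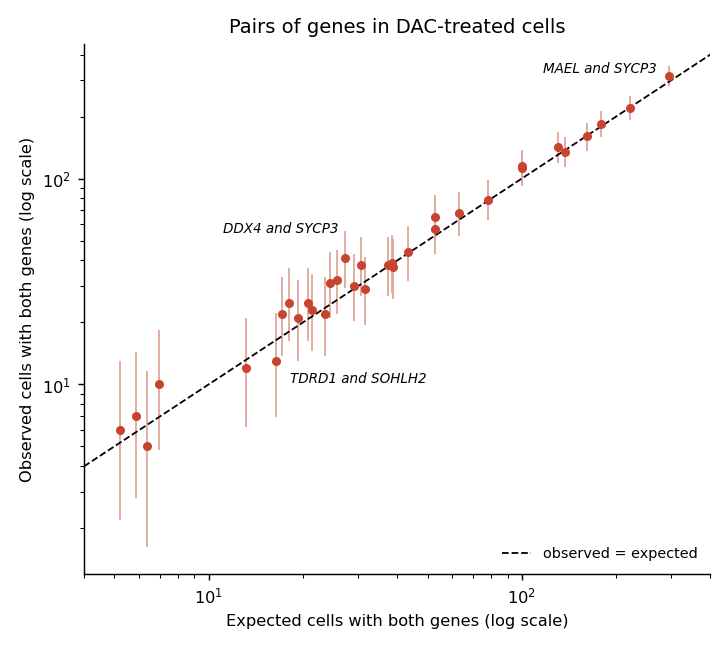
Cells with both genes of a pair in DAC-treated cells, observed against expected, on log scales, for the 34 pairs with 5 or more expected cells. Lines are 95% Poisson intervals on the observed number, and the dashed line marks equality. The points follow the line, with DDX4 and SYCP3 above it at 41 observed and 27.4 expected.

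As a description over the 1120 deeper DAC-treated cells, Pearson correlations between pairs of the 10 genes ran from -0.02 for TDRD1 with PIWIL2 to 0.12 for MAEL with HORMAD1, and cells of 1 library share its depth and preparation. Among 11670 genes detected in 10% or more of these cells, the level of the summed genes was most like that of BTG3, an antiproliferative factor, at r = 0.287, and of BUD23, a methyltransferase of ribosomal RNA, at r = 0.285. TERF2IP, ARPC5, and MLF1 followed at 0.271, 0.250, and 0.237. All of these are weak.

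Other genes of these pathways were listed by function. Of 20 further piRNA pathway genes, 18 had enough UMIs, 12 had a level at least 2-fold higher with DAC and 1 at least 2-fold lower, and the median log2 ratio was 1.53. Over all genes the median was 0.32, with 25.4% at least 2-fold higher and 8.39% at least 2-fold lower, and these are the shares to set beside the counts of each list that follows. Genes with 2 UMIs or fewer in mock-treated cells were again called by the filter alone, and those at 0 enter the medians at their lower limits. Of the piRNA pathway genes with 10 UMIs or more in the mock-treated library, 5 of 10 were at least 2-fold higher, where 13.1% of all such genes were. TDRD12, another Tudor domain gene, had 10 UMIs in mock-treated and 1096 in DAC-treated cells, 92.6-fold higher (50.2 to 194). FKBP6 had 8 and 318 UMIs, and MOV10L1, the helicase that processes piRNA precursors, had 13 and 150. HENMT1, the piRNA methyltransferase, RNF17, and TEX15 were at 0 UMIs in mock-treated cells and had 146, 181, and 198 UMIs in DAC-treated cells. TDRD6 had 69 and 123 UMIs, TDRD7 had 144 and 450, and GPAT2 had 953 and 3088. GTSF1, a PIWI cofactor, was already abundant, with 10136 UMIs in mock-treated and 10257 in DAC-treated cells, a ratio of 0.855.

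Of 18 further genes of the synaptonemal complex and meiotic chromosomes, 15 had enough UMIs, 10 were at least 2-fold higher and 1 lower, with a median log2 ratio of 2.17 that is itself a lower limit. With 10 mock-treated UMIs or more, 2 of 7 were higher. SYCE1, of the central element, had 0 UMIs in mock-treated and 459 in DAC-treated cells, at least 129-fold higher. The meiotic cohesin genes REC8, STAG3, and SMC1B had 76, 192, and 33 UMIs in mock-treated cells and 346, 332, and 115 in DAC-treated cells. SYCP2, the partner of SYCP3 in lateral elements, had 3 and 20 UMIs, a ratio of 5.64 with an interval from 1.67 to 29.6. MAJIN and TERB2, which tether telomeres to the nuclear envelope, had 0 UMIs in mock-treated and 42 and 38 in DAC-treated cells. SYCP2L had 155 and 100 UMIs, a ratio of 0.545.

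Of 22 genes of meiotic recombination, 19 had enough UMIs, 12 were at least 2-fold higher and 1 lower, with a median log2 ratio of 1.30. With 10 mock-treated UMIs or more, 7 of 13 were higher. RNF212 had 1 and 195 UMIs, a ratio of 165 (29.2 to 6544), MEIOB had 6 and 408, a ratio of 57.5, and TEX11 had 13 and 253. CCDC36 had 2 and 38 UMIs, a ratio of 16.1 (4.15 to 137). MND1, TRIP13, and PSMC3IP, which were expressed before treatment, had 963, 637, and 529 UMIs in mock-treated and 2397, 1855, and 1316 in DAC-treated cells, and C11orf80 had 259 and 233. SPO11, which makes the meiotic double-strand breaks, and PRDM9, which places them, were at 0 UMIs in both libraries.

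Of 21 germ cell RNA-binding proteins and regulators, 18 had enough UMIs, 16 were at least 2-fold higher and 0 lower, with a median log2 ratio of 4.65. With 10 mock-treated UMIs or more, 5 of 6 were higher. SOHLH1, the partner of SOHLH2, had 1 and 1351 UMIs, a ratio of 1142 (205 to 45140). With DAC it had more UMIs than SOHLH2, whose count is uncertain because of the readthrough gene. RBM46 had 31 and 1320 UMIs and MEIOC had 14 and 641, whereas YTHDC2, which works with both, had 1104 and 1241, a ratio of 0.950. KHDC3L, TEX101, and DPPA4 each had 1 UMI in mock-treated cells and had 441, 256, and 220 in DAC-treated cells, ratios of 373 (66.6 to 14757), 216 (38.5 to 8580), and 186 (33.0 to 7378). DPPA2 and DPPA5 were at 0 UMIs in the mock-treated library and had 303 and 183 with DAC. TEX14 had 8 and 537 UMIs, DND1 had 44 and 358, and NANOS1 had 58 and 226.

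Of 21 genes of PRC1.6 and other repressors of germline genes, 2 were at least 2-fold higher and 0 lower, against 25.4% and 8.39% of all genes, with a median log2 ratio of 0.22. All 21 had 10 UMIs or more in the mock-treated library, and of all such genes 13.1% were higher and 9.68% lower. UHRF1, which recruits DNMT1 to replicating DNA, had a ratio of 2.72 and WDR5 had a ratio of 2.25. DNMT1 itself, the maintenance methyltransferase that DAC traps, had 5731 UMIs in mock-treated and 12758 in DAC-treated cells, a ratio of 1.88. The PRC1.6 subunit genes E2F6, MGA, MAX, L3MBTL2, and PCGF6 had ratios of 1.30, 1.11, 1.09, 1.40, and 1.26, and RING1, RNF2, RYBP, and YAF2 had ratios of 0.708, 1.17, 1.13, and 0.738. CBX3, HDAC1, and HDAC2 had ratios of 1.62, 0.695, and 0.994.

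**Figure D5:**
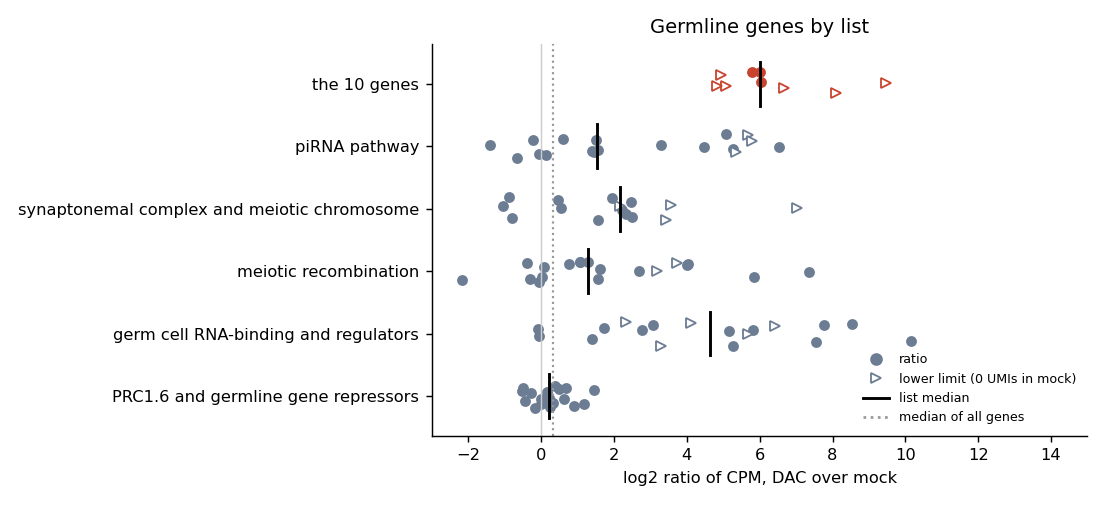
log2 ratio of CPM in DAC-treated over mock-treated cells for the genes with 10 UMIs or more in both libraries together, by list. Circles are ratios, open triangles are lower limits for genes at 0 UMIs in mock-treated cells, black lines are list medians, and the dotted line is the median of all genes at 0.32. The median is 4.65 for germ cell RNA-binding proteins and regulators and 0.22 for PRC1.6 and germline gene repressors.

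Markers of other cells were examined beside these values. Of 8 markers of colon epithelium, KRT18 had 101301 and 252746 UMIs and EPCAM 17419 and 13099 in mock- and DAC-treated cells, whereas CEACAM5 had 1 and 0. Their summed level was 5022 and 7980 CPM, and of 7 with enough UMIs, KRT18 was at least 2-fold higher and CLDN4, with 4337 and 1610 UMIs, at least 2-fold lower. The summed level of the 6 testis somatic markers was 9.36 CPM in mock-treated and 6.55 in DAC-treated cells, with AMH at 337 and 344 UMIs, INSL3 at 125 and 33, and HSD3B2 and FSHR at 0 in both. Of 12 further germ cell and spermatid markers, the summed level was 1.64 and 1.10 CPM, and PRM1, TNP1, TNP2, SPACA1, and ODF1, of late spermatids, were at 0 UMIs in both, while ACR had 15 and 14, ACRV1 had 2 and 3, and PRM2 had 0 and 1. Of these, NANOG, a pluripotency factor, had 49 UMIs in mock-treated and 6 in DAC-treated cells, whereas POU5F1 had 5 and 15 and LIN28A had 11 and 25. Without NANOG the summed level was 0.661 and 0.999 CPM, the opposite direction. The summed levels were 6.69 and 10.3 CPM for the 5 leukocyte markers, 10.9 and 19.95 for the 6 fibroblast markers, and 0.120 and 1.91 for the 3 endothelial markers. With DAC, levels were at least 2-fold higher for 4 of 5 leukocyte, 2 of 4 fibroblast, and 2 of 2 endothelial markers with enough UMIs, where 25.4% of all genes were. With 10 mock-treated UMIs or more, these were 1 of 2 leukocyte and 0 of 1 fibroblast markers, and no endothelial marker had as many. PTPRC, the defining leukocyte gene, had 0 UMIs in mock-treated and 16 in DAC-treated cells. Their part in the values of the germ cell genes was not tested.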

How the data were processed

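Single cells of mock- and DAC-treated HCT116 cells were captured with the Chromium 3′ v3 kit, with 1 library per condition. The authors processed the reads with Cell Ranger against hg38 and deposited the UMI counts of 33538 genes per cell, without normalization. The annotation release is not given in the sources used here. All deposited cells were used, and doublets were not called, because cells of 1 line carry no genes that tell doublets apart. The libraries held between 500 and 148446 UMIs per cell.

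For each library, the UMIs of a gene in all cells were added up and divided by the library total, times 1000000 (CPM). For genes with 0 UMIs in mock-treated cells, ratios were lower limits against 3 counts over the library. Genes with fewer than 10 UMIs in both libraries together were left out of counts at 2-fold. Expected cells with several genes were computed within 10 depth groups. Python 3.11.15, numpy 2.4.6, scipy 1.17.1, pandas 2.3.3, and matplotlib 3.10.9 were used, and the computations were tested on simulated data. Correlations used log-scaled UMIs per 10000.

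The 10 genes and the lists were chosen with earlier results of these data known. All 10 genes were named. Within each pathway list, the named genes were the 4 with the most UMIs, the 4 with the largest ratio among those with 20 UMIs or more in either library, and those with 3 UMIs or more in at least 5 DAC-treated cells and in no mock-treated cell. The 5 genes with the highest correlation with the summed genes were named when r was 0.2 or more. SPO11, PRDM9, the repressors E2F6, MGA, MAX, L3MBTL2, PCGF6, RING1, RNF2, RYBP, and YAF2, and the markers were named after their values were seen. The result of 1 leukocyte marker is not reported here, and it was left out of its list for a reason unrelated to its values.

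The alternatives were other thresholds of 2 or 3 UMIs, drawing 10000 UMIs per cell, leaving out cells with over 50% mitochondrial UMIs or under 10000 UMIs, omitting in each library the 5% of cells highest in UMIs, median-of-ratios scaling, per-cell means, totals without mitochondrial genes, other minimum UMIs, expected numbers over all cells, and leaving out MAEL. Leaving out SYCP3 was added after the data were seen.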

Additional observations from a re-analysis of the deposited data

How the results depend on the processing

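All 10 genes, with ASZ1 on 1 and 6 UMIs, had a higher level in DAC-treated cells with median-of-ratios scaling, per-cell means, and both cell filters, where 64.6% of all genes were higher without these changes, and the log2 ratios of single genes ran from 2.06 to 9.62. Median-of-ratios scaling moved all log2 ratios by 0.18, gave 4174 genes at least 2-fold higher and 2090 lower in place of 4855 and 1605, and requiring 50 UMIs gave 2875 higher and 1112 lower of 15146 genes.

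Among DAC-treated cells, the share positive for any of the genes was 35.4% at 3 UMIs or more, 56.8% when 10000 UMIs were drawn from each cell, and 89.0% in cells with 10000 UMIs or more and at most 50% mitochondrial UMIs. In mock-treated cells it was 0% at 3 UMIs or more and 0.730% when 10000 UMIs were drawn. The log2 ratio of the summed genes, 7.34, was 6.65 without MAEL and 8.44 without SYCP3, which was chosen after seeing the data. The median log2 ratio of germ cell RNA-binding proteins and regulators, 4.65, was 3.71 with genes of 1 UMI or more, and that of PRC1.6 and other repressors, 0.22, was 0.03 with median-of-ratios scaling. The ratio of observed to expected cells with 2 or more of the genes, 0.985, ran from 0.978 to 1.003, the last with 2 UMIs as the threshold. No paired analysis was possible because each condition had 1 library. The spread between cultures is unknown, and at this depth ASZ1 could not be told apart between the libraries.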

Other observations

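The germ cell genes were also set beside the other genes that never exceeded 2 UMIs in a mock-treated cell. The 1120 DAC-treated cells with 10000 UMIs or more and at most 50% mitochondrial UMIs were divided into 3 groups of like size by the UMIs of these other genes, which had medians of 83.0, 110, and 159 per 10000 UMIs. At least 1 germ cell gene was detected in 84.2%, 89.8%, and 93.05% of the cells of these groups, and their summed level was 91.0, 112, and 147 CPM. MAEL was detected in 46.9%, 64.1%, and 62.8% of the cells, SYCP3 in 37.0%, 42.9%, and 48.7%, and PIWIL2 in 31.9%, 30.0%, and 34.0%. TDRD9 was detected in 3.49%, 7.77%, and 10.4%, and HORMAD1 in 8.31%, 6.97%, and 7.49%. The median UMIs per cell were 46593, 47807, and 46191 in these groups. The cells are from 1 library, and no test was made.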
